A study of Mus musculus with 1183 samples.

Results

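Ccl2, Ccl7, Ccl12, Ccl8 and Ccl24 encode secreted proteins that draw monocytes or eosinophils into tissues. Their rows were found by symbol in a count table of 18072 genes, which held all 5, and they were read across the cell subtype given in the labels, by animal and by single cell. The table covers 1183 immune cells sorted from the distal lung of mouse pups aged 7 days, and each cell is a sample. Of these, 598 came from 1 female and 585 from 1 male, and both had been exposed to hyperoxia, a raised level of oxygen that injures the growing lung. No strain or genotype is given in the sources used here, and no cells from pups at normal oxygen were analysed here, so the values describe the exposed lung and give no effect of oxygen. The animal is the replicate (n = 2), and with 1 of each sex sex and animal cannot be separated.

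Chemokines form gradients that guide white blood cells along receptors on their surface. Ccl2, Ccl7 and Ccl12 proteins act mainly through Ccr2, the receptor by which monocytes leave the bone marrow and enter inflamed tissue, and Ccl7 can also bind Ccr1 and Ccr3. Mouse Ccl8 acts through Ccr8, found on some T cells and innate lymphocytes, and Ccl24 acts through Ccr3, the eotaxin receptor of eosinophils and basophils. Macrophages that express such genes in injured lung are known as a source of signals for incoming monocytes.

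The labels name 16 subtypes. Members were read mostly in Mac IV (63 cells of the female and 79 of the male) and in the subtype labelled mast cell (39 and 20 cells). How the subtypes were assigned is not given in the sources used here, and labels made from expression in these same cells would share data with any test between them, so a difference between subtypes describes the labelled classes. The names were checked against marker genes. Mac IV held all 6 markers of interstitial-type macrophages (C1qa, C1qb, C1qc, Mrc1, Apoe and Pf4) above 10 CPM in both animals, where CPM is the reads of a gene scaled to the same total in every set of summed cells. Mast cells held all 4 mast cell markers (Cpa3, Cma1, Tpsb2 and Kit) above that level, and of the 6 macrophage markers only Apoe, at 2345 and 3285 CPM, with C1qa at 0 and 1 reads. They also held all 4 basophil markers listed (Mcpt8, Cd200r3, Ms4a2 and Fcer1a) above it, the NK cell marker Nkg7 at 146.6 and 738 CPM and the monocyte marker Plac8 at 103.2 and 167.2 CPM, and 4 (female) and 1 (male) of 4 B cell markers were above it. The part of these in the mast cell levels was not tested. Basophils had 0 reads of Ccl2, and B cells and NK cells had 1 each. Mac V, with all 4 monocyte markers above 10 CPM, held Ccl2 at 112.2 (female) and 224.1 CPM (male). Over all Mac IV cells, 0 had Cpa3 or Ear1, a gene of alveolar macrophages, above it, which by the limit of 3 cells of the total allows a share of up to 2.11% for each. Among markers of other types, 2 (female) and 3 (male) of 4 monocyte markers and 5 of 8 markers of cells not derived from blood in both animals were above 10 CPM in Mac IV, with summed levels of 408.7 and 329.3 CPM and of 233.2 and 143.9 CPM. The B cell marker Cd79b was at 81.7 and 73.3 CPM there, while 0 of 4 mast cell and 0 of 4 basophil markers were above 10 CPM. Of 4 alveolar-type macrophage markers, 1 was above it in each animal, Car4 at 105.3 (female) and 19.2 CPM (male). Also above it in both were Csf3r of neutrophils (54.7 and 32.4 CPM), Ccr7 of dendritic cells (31.8 and 13.9) and Cd3d of T cells (15.5 and 23.2). The part of these in the levels of Mac IV was not tested.

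All 5 messages encode the paired cysteines that name the CC family. Below, 90 coding bases of each are printed around these codons, which are in capitals, because the genes are close relatives and reads had to be told apart by the letters that differ. The stretches are from GENCODE M21 on build GRCm38, and each gene has 3 coding exons there.
Ccl2: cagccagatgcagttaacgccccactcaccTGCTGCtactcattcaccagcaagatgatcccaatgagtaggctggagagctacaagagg
Ccl7: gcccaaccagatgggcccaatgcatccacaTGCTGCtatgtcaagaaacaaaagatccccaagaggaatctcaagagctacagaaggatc
Ccl12: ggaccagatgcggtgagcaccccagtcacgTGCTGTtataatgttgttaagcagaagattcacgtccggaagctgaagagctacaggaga
Ccl8: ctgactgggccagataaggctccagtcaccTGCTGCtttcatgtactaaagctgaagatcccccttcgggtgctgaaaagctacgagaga
Ccl24: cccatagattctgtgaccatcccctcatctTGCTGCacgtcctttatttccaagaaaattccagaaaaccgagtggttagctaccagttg
Over the whole coding sequence, the closest pair among the 5 was Ccl2 and Ccl8, with 73.5% of aligned bases identical, and the most distant was Ccl12 and Ccl24, with 62.3%. The longest run of identical bases was 23, between Ccl2 and Ccl7. Ccl2, Ccl7, Ccl12 and Ccl8 lie in that order on the plus strand of chromosome 11, with Ccl11 between Ccl7 and Ccl12, while Ccl24 lies on the minus strand of chromosome 5. How the deposited counts treated reads from shared stretches or overlapping genes is not given in the sources used here, and levels of relatives are uncertain to that extent.

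Ccl2, the main monocyte attractant of the group, was read in Mac IV at 1187 (female) and 3986 CPM (male). Mast cells held it at 1452 (female) and 1780 CPM (male). The means, 2587 ± 1979 CPM (SD, n = 2) in Mac IV and 1616 ± 231.5 CPM in mast cells, differed by less than the spread between animals. Mac V, whose monocyte markers (Plac8, Ly6c2, Ace and Ccr2) were all above 10 CPM, followed at 112.2 and 224.1 CPM, beyond the spread. The level in DC II was 57.1 (female) and 91.97 CPM (male). Then came neutrophils, DC I and Mac III, with means of 18.6 ± 26.3, 17.4 ± 24.6 and 16.7 ± 10.8 CPM, which did not differ beyond their spread. Ccl2 had 0 reads in Mac II, basophils, T cells, mast cell II, DC III and IL cells, and 1 read each in B cells and NK cells. So 77.3% of all Ccl2 reads lay in Mac IV and 18.4% in mast cells, subtypes that held 14.8% and 6.19% of all reads in the table.

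Ccl7, a chemoattractant for monocytes that also binds eosinophil receptors, was limited almost wholly to the same pair of subtypes. In Mac IV it stood at 547.5 (female) and 1692 CPM (male), and in mast cells at 620 (female) and 247.6 CPM (male). These levels overlapped, and the means, 1120 ± 810 CPM and 434 ± 263.1 CPM, differed by less than the spread. Mac IV held 84.8% of its reads and mast cells 15.2%, and only 5 reads lay in any other subtype. Mac V, which had Ccl2, had 0 reads of Ccl7 in either animal.

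Ccl12, a mouse relative of Ccl2 that also attracts monocytes, was read in Mac IV at 603 (female) and 1320 CPM (male). Outside Mac IV it had 5 reads in all, against 213122 inside. Ccl8 stood at 67.1 (female) and 91.6 CPM (male), with 17207 of its 17208 reads in Mac IV. Ccl24, known as an eotaxin because it attracts eosinophils, stood at 280 (female) and 328.5 CPM (male), with 26 reads elsewhere, of which 19 were in 1 DC II cell. Mast cells of both animals had 0 reads of Ccl12, Ccl8 and Ccl24, beside 138805 reads of Ccl2, so the chemokine reads of mast cells were not in the proportion found in Mac IV. The plot of levels by subtype shows these patterns, a broader one for Ccl2, a pair of subtypes for Ccl7, and a single subtype for the other genes.

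**Figure D1:**
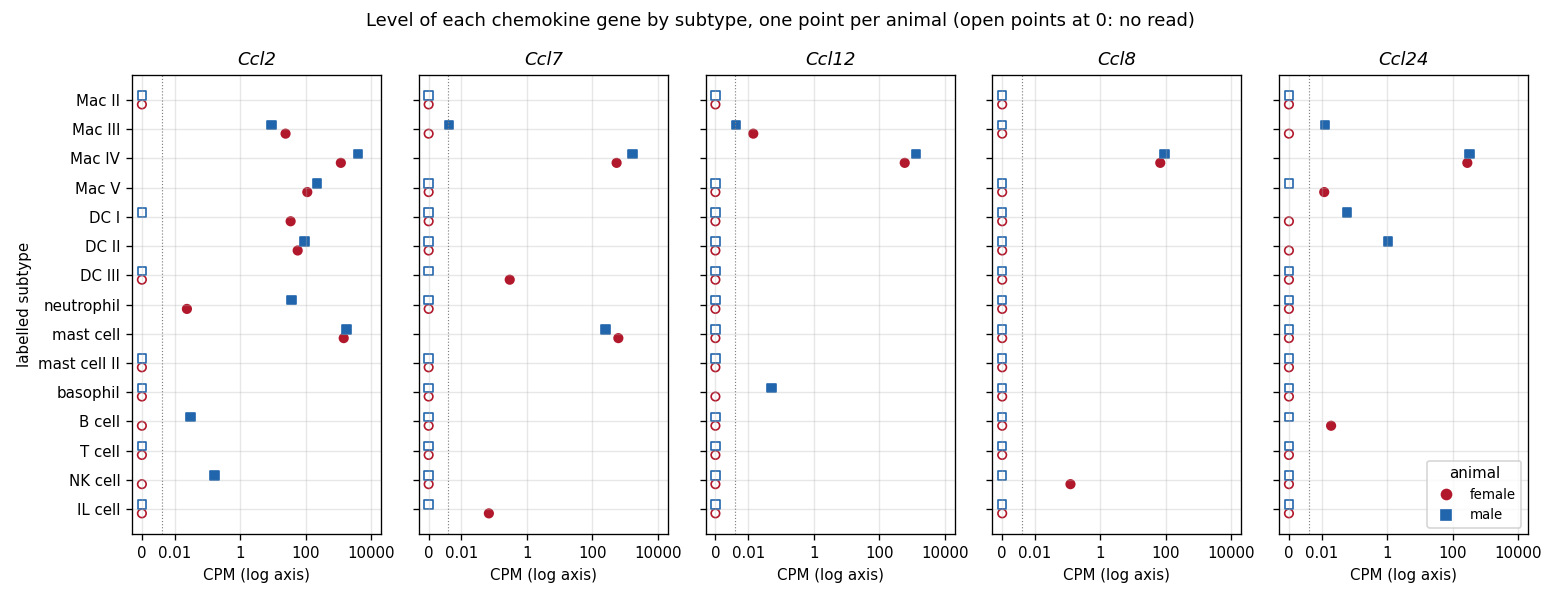
Level of each gene (CPM, log axis) in 15 subtypes (5 or more cells per animal), with 1 point for the summed cells of each animal; open points left of the dotted line are at 0 reads. Mac IV is high in all 5 panels and mast cells in the panels of Ccl2 and Ccl7 only, with Mac IV Ccl2 at 1187 (female) and 3986 CPM (male).

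Per kilobase of the longest coding transcript, which allows genes to be compared, the mean levels in Mac IV were 3182 CPM per kb for Ccl2, 1790 for Ccl12, 1398 for Ccl7, 234.9 for Ccl24 and 155.3 for Ccl8. The SDs over animals were 2434, 944, 1011, 26.6 and 33.9 CPM per kb. Ccl2, Ccl12 and Ccl7 lay within each other's spread, and each of these 3 was above Ccl24 and Ccl8 in both animals.

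The levels were next compared between Mac IV and the other macrophage labels with at least 5 cells in each animal. Raw counts summed by animal and subtype were tested with edgeR's quasi-likelihood test, and p-values were adjusted by the Benjamini-Hochberg method over 15600 genes. Ccl7 and Ccl12 were called higher in Mac IV than in Mac II (adjusted p = 0.0154 and 0.0352), a comparison in which 0.0705% of genes were called higher in Mac IV and 0.0192% lower. Mac II had 0 reads of all 5 genes. Ccl12, Ccl24 and Ccl8, with 5, 26 and 1 reads outside Mac IV, passed the filter on low counts only through the Mac IV libraries. In this comparison and those of Mac IV below, only a higher level in Mac IV could therefore be called for them. Against the limit that 3 counts over the group set, Ccl7 was 27640-fold higher in Mac IV and Ccl12 23397-fold. Both were higher in 2 of 2 animals. These folds cover the counting of reads in the cells sequenced, so they are no lower bounds for the subtypes. By cells, the limit of 3 cells of the total allows each gene in up to 11.1% (female) and 15% (male) of Mac II cells. Ccl2, 64026-fold higher against the limit of 3 counts, was not called (adjusted p = 0.115), nor were Ccl24 (0.184) and Ccl8 (0.414).

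The comparisons with Mac III and Mac V share the Mac IV libraries with that with Mac II, so they are no separate evidence for Mac IV. Ccl7 and Ccl12 were called higher than in Mac III (edgeR adjusted p = 0.00432 and 0.0196), where 0.212% of genes were called higher and 0.0513% lower. They were called higher than in Mac V (0.00981 and 0.0202), where 0.0962% were called higher and 0.0705% lower. Ccl2, which had reads in both of these subtypes, differed from Mac III by a log2 fold change of 7.26 ± 2.51 (SE; adjusted p = 0.460) and from Mac V by 3.87 ± 2.14 (adjusted p = 0.557). All 5 genes were higher in Mac IV in both animals in each comparison, but with 2 animals a group the test rests on a wide spread, with a common biological coefficient of variation of 1.152. In data simulated for Mac IV against Mac III over 15600 genes, the test called 20 of 100 genes raised 64-fold and 0 of 100 raised 8-fold.

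These calls depend on the test. DESeq2 called 0 of the 5 genes against Mac III and against Mac V, with 5 and 2 higher at an unadjusted p under 0.05, as were 5.55% and 9.18% of all genes. It called 2.32% and 4.9% of all genes higher in these comparisons. Against Mac II it called Ccl2 in place of Ccl7 and Ccl12, and 3.65% of all genes. An edgeR fit of each pair of subtypes alone called all 5 members, but it also called more of all genes higher in Mac IV, 1.05% against Mac II, 6.7% against Mac III and 2.31% against Mac V. With the animal as a block, Ccl12 against Mac II was no longer called (edgeR adjusted p = 0.0735, in a range of 0.00421 to 0.404 over 12 alternatives). Leaving out any of the 4 libraries of a comparison left at most 1 call, which was Ccl7.

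The pair of subtypes that share Ccl2 and Ccl7 was compared after the levels had been seen. Ccl2 differed between Mac IV and mast cells by a log2 fold change of 0.47 ± 1.91 (SE; edgeR adjusted p = 1) and Ccl7 by 1.16 ± 1.10 (adjusted p = 0.856), differences too uncertain to show either a gap or equal levels. Ccl12 was called higher in Mac IV (adjusted p = 0.00661), as was Ccl24 (0.0417), while Ccl8 was not (0.143). These genes entered the test only through the Mac IV libraries, so only a higher level there could be called. Against the limit of 3 counts they were 29755-fold, 9137-fold and 2402-fold higher, folds that cover the counting of reads only. By cells, the limit of 3 cells of the total allows each of them in up to 7.69% (female) and 15% (male) of mast cells. Of all genes, 1.12% were called higher in Mac IV here. With the animal as a block, Ccl24 was no longer called (edgeR adjusted p = 0.0529, in a range of 0.000896 to 0.303 over 12 alternatives), and DESeq2 called 0 of the 5 and 6.52% of all genes higher, with 2 members and 9.63% of genes higher at an unadjusted p under 0.05.

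The labels also name a mast cell II subtype, with 14 cells of the female and 8 of the male. It had 0 reads of all 5 genes. Against the limit of 3 counts, mast cells were 16622-fold higher for Ccl2 (edgeR adjusted p = 0.0443) and 5403-fold for Ccl7 (0.00475). Of all genes, 0.647% were called higher in mast cells. These folds cover the counting of reads only and are no lower bounds for the subtypes. By cells, the limit of 3 cells of the total allows either gene in up to 21.4% (female) and 37.5% (male) of mast cell II cells. Ccl2 was found in 51.3% (female) and 50% (male) of mast cells. DESeq2 called Ccl2 alone of the 5 genes higher in mast cells, beside 7.42% of all genes. This comparison was also added after the levels had been seen. With the animal as a block the adjusted p for Ccl2 was 0.0572, in a range of 8.05e-17 to 0.317 over 12 alternatives, and on the sequencing run that both animals share Ccl7 alone was called.

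Detection was then counted cell by cell. To set cells of unequal depth side by side, reads were drawn at random from each down to 100000. This dropped 5 cells below that depth, none of Mac IV, and a cell was counted with at least 5 reads of a gene. In Mac IV, Ccl2 was found in 33 of 63 cells of the female (52.4%, exact Clopper-Pearson 95% interval 39.4% to 65.1%) and 56 of 79 of the male (70.9%, 59.6% to 80.6%). Ccl12 was found in 52.4% and 67.1% of cells, Ccl7 in 47.6% and 62.03%, and Ccl24 in 41.3% and 45.6%. Ccl8 was the rarest, in 5 cells of the female (7.94%) and 7 of the male (8.86%). Without thinning the shares were the same or higher, for Ccl24 47.6% and 51.9%. At least 1 of the 5 genes was found in 77.8% of Mac IV cells of the female and 88.6% of the male. These intervals cover the counting of cells within 1 animal only, since cells of an animal are not replicates of a subtype.

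As a background, B cells, which are not known as a source of these proteins, had 0 of 39 (female) and 0 of 25 cells (male), where the limit of 3 cells of the total allows shares of up to 7.69% and 12%, and the exact intervals reach 9.03% and 13.7%. Median depth was 1131743 and 1471919 reads in B cells, against 1341706 and 1489855 in Mac IV. Neutrophils, also set as a background, had at least 1 member in 0 of 55 cells of the female, which allows up to 5.45%. In the male it was 2 of 78 neutrophils (2.56%, 0.312% to 8.96%), both with Ccl2. Their median depth was lower, at 616659 and 571915 reads. In mast cells, Ccl2 was found in 20 of 39 cells of the female (51.3%, 34.8% to 67.6%) and 10 of 20 of the male (50%, 27.2% to 72.8%), intervals that overlap those of Mac IV in the same animal. Ccl7 was found in 6 mast cells of the female (15.4%, 5.86% to 30.5%) and 2 of the male (10%, 1.23% to 31.7%), below the Mac IV intervals of 34.9% to 60.6% and 50.4% to 72.7%. All 8 mast cells with Ccl7 also had Ccl2, and 0 of 59 mast cells had 5 reads of C1qa, C1qb or C1qc, the complement genes that mark Mac IV, which allows up to 5.08%.

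**Figure D2:**
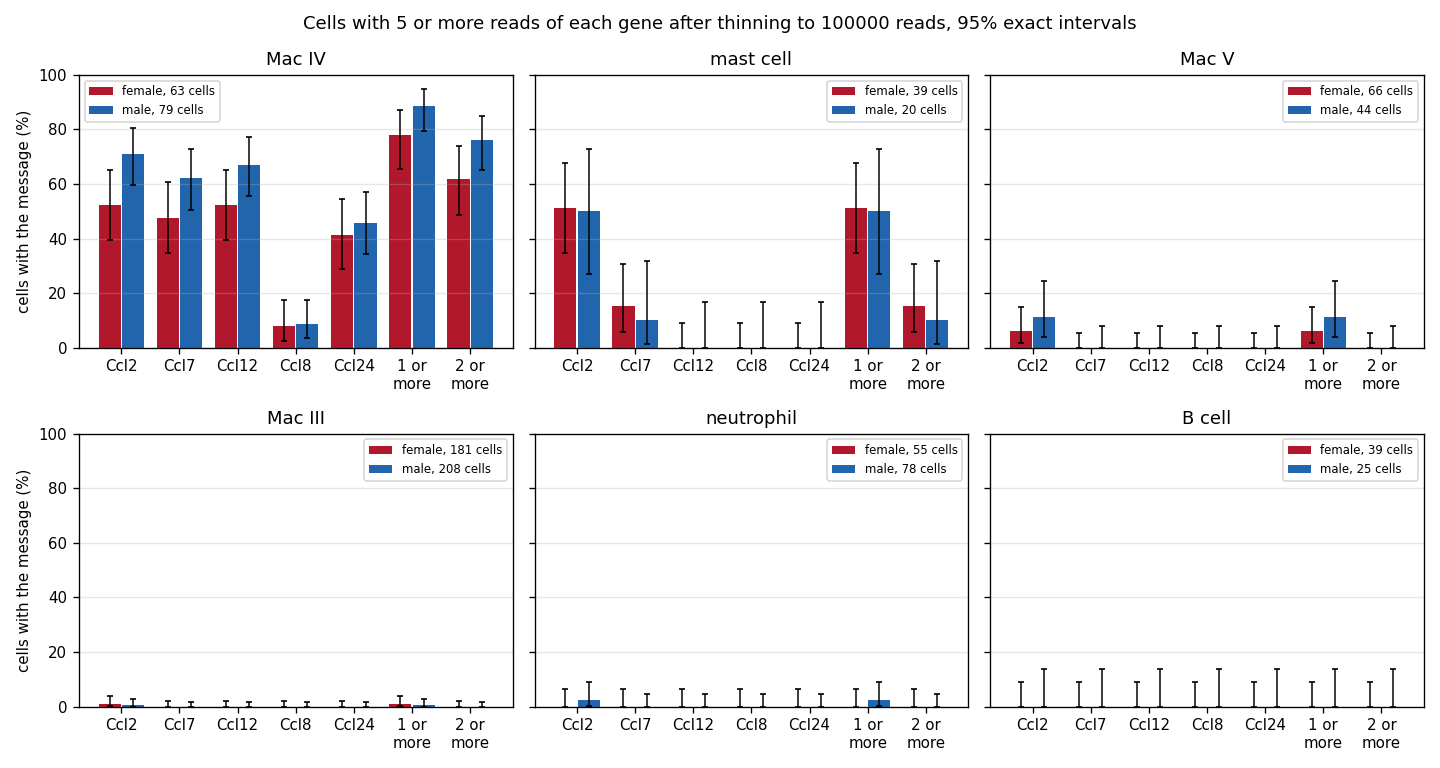
Share of cells (%) with at least 5 reads of each gene after thinning to 100000 reads, by animal, in 6 subtypes; lines are exact 95% intervals, and the last bars count cells with 1 or more and 2 or more of the 5 genes. Mac IV reaches 77.8% and 88.6% for 1 or more genes, mast cells 51.3% and 50%, and B cells 0.

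Outside these subtypes, detection was that of scattered cells, nearly all with Ccl2 as the only member. Without thinning, 9 Mac V cells had Ccl2, from 216.6 to 2994 CPM, and 0 of the 9 had a read of Ccl7, Ccl12, Ccl8, C1qa, C1qb or C1qc. They held Plac8, a monocyte gene, at 767 CPM or more. Mac III had 5 such cells, from 9.55 to 1919 CPM, male neutrophils had 3, and DC I had 1. DC II had 4 cells with Ccl2 and 1 with Ccl24, and all 5 also had a C1q gene above 10 CPM, in 2 of them including C1qa. The level of a subtype with few such cells turns on each of them. Without the top cell of each animal, the mean for Ccl2 was 57.1 in place of 168.1 CPM in Mac V and 980 in place of 1616 CPM in mast cells, and that for Ccl7 in mast cells was 181.5 in place of 434 CPM.

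Members were often found together in the same Mac IV cell. At least 2 were found in 39 of 63 cells of the female (61.9%, exact interval 48.8% to 73.9%) and 60 of 79 of the male (75.9%, 65.02% to 84.9%). Over both animals the commonest set was Ccl2, Ccl7, Ccl12 and Ccl24 together, in 26 cells, followed by no member in 23, and by Ccl2, Ccl7 and Ccl12 in 19. All 5 were found in 3 cells. Cells with 1 member alone were few, 8 with Ccl12, 6 with Ccl24, 3 with Ccl2, 2 with Ccl7 and 1 with Ccl8. In mast cells the sets were no member in 29, Ccl2 alone in 22 and Ccl2 with Ccl7 in 8.

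**Figure D3:**
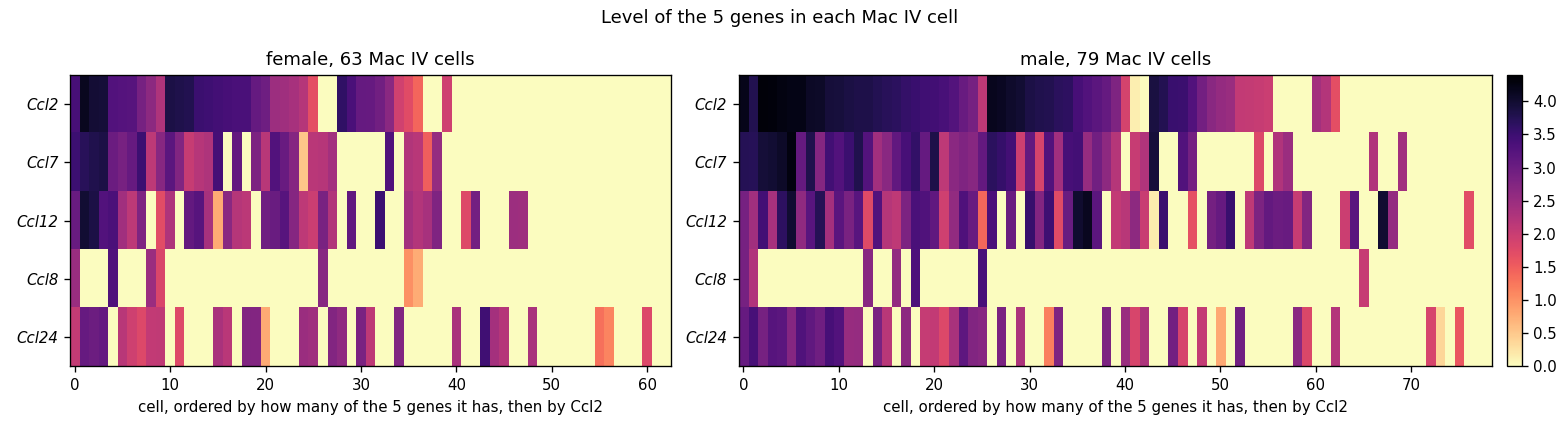
Level of the 5 genes, as log10(CPM + 1), in each Mac IV cell of the female (63 cells) and the male (79 cells); each column is a cell, ordered by how many of the genes it has and then by Ccl2. Cells with much Ccl2 mostly hold Ccl7 and Ccl12 as well, Ccl8 is in 5 and 7 cells after thinning, and 14 and 9 cells have none of the 5.

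Pairs were unequal in how far they kept together. Ccl2 and Ccl7 were found in the same cell in 66 cells, 74.2% of those with Ccl2 and 83.5% of those with Ccl7. By the product of the separate shares, 15.7 cells of the female and 34.7 of the male would hold both, and 23 and 43 did. Ccl7 and Ccl12 shared 24 cells in the female and 39 in the male, where the product gives 15.7 and 32.9. Ccl12 and Ccl24 shared 12 and 27 cells, where it gives 13.6 and 24.2, so this pair lay on either side of the product. Of the 12 cells with Ccl8, 11 had Ccl7, 10 had Ccl2, 8 had Ccl12 and 6 had Ccl24. For Ccl7 these were 5 cells (female) and 6 (male), where the product gives 2.38 and 4.34. For Ccl2 they were 4 and 6, where it gives 2.62 and 4.96. Ccl12 had 3 and 5, where it gives 2.62 and 4.70, and Ccl24 had 3 and 3, where it gives 2.06 and 3.19.

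The order of Mac IV cells by level was compared with Spearman's rho of CPM within each animal, as a description, since genes of a cell share its library and depth. Ccl2 and Ccl7 gave 0.63 (63 cells, female) and 0.79 (79 cells, male). On the CD45 plates, rho for this pair lay between 0.585 and 0.773, so it was similar within plates. Among cells with reads of both genes it was 0.51 over 27 cells and 0.62 over 45. Ccl2 and Ccl12 gave 0.50 and 0.42, but 0.43 and 0.22 among cells with both, and on the male plates 0.585 and 0.205. Ccl7 and Ccl12 gave 0.57 and 0.43, and 0.35 and 0.28 among cells with both. Over all Mac IV cells, Ccl24 stood apart from Ccl12, with -0.11 in the female and 0.07 in the male. Among cells with both genes, this pair gave 0.26 over 15 cells and 0.11 over 31. Ccl24 went with Ccl2 at 0.30 and 0.49. For Ccl2, Ccl7, Ccl12 and Ccl24, the rank correlation with the cell's depth lay between -0.13 and 0.05, and for Ccl8 it was 0.17 and 0.0062. With the number of genes detected at equal depth it was 0.31 (female) and 0.014 (male) for Ccl7 and 0.43 and 0.20 for Ccl8, and its part in the order of cells was not tested.

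**Figure D4:**
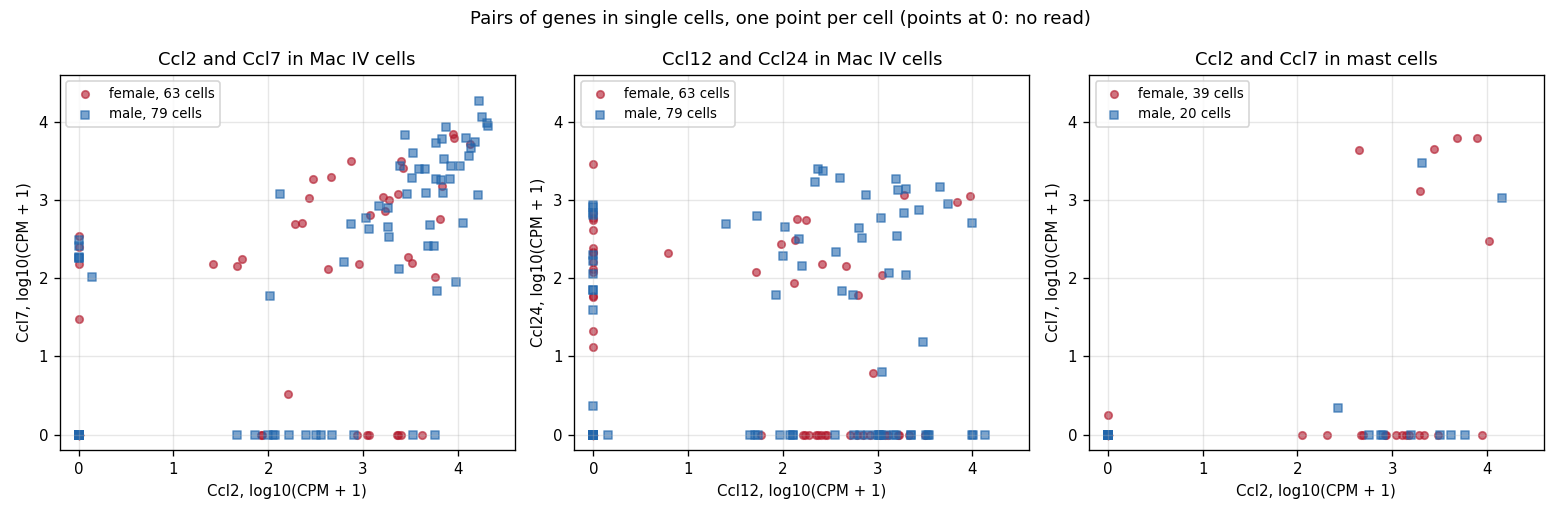
Levels of gene pairs in single cells, as log10(CPM + 1) on both axes, with 1 point per cell, for Ccl2 and Ccl7 in Mac IV, Ccl12 and Ccl24 in Mac IV, and Ccl2 and Ccl7 in mast cells. Cells high in Ccl2 are mostly high in Ccl7 in Mac IV (rho 0.63 and 0.79). Ccl12 and Ccl24 show no order over all Mac IV cells (-0.11 and 0.07), and 8 mast cells have 5 or more reads of both Ccl2 and Ccl7.

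The genes most like each member over Mac IV cells were chosen among 6151 others with at least 5 reads in at least 20% of the cells of each animal, by the lower rho of the animals. For Ccl2 they were Ccl7 (0.63), Pf4, a platelet-type chemokine also made by macrophages (0.47), and Ccl12 (0.42). For Ccl7 they were Ccl2, Gas6, a ligand of receptors for dead cell uptake (0.49), and Pf4 (0.47), and for Ccl12 they were Ccl7 (0.43), Ccl2 and Ctla2b (0.35). Ccl24 had other neighbours. They were Ednrb, an endothelin receptor (0.48), Cd163, a haemoglobin scavenger receptor (0.45), and Fcna, a ficolin (0.44), each over 63 and 79 cells. Ccl2 was in place 10 for Ccl24 and Ccl12 in place 3946. Ccl8 was in too few cells to be given such a list.

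Over the 30 summed libraries, Pearson's r of log2(CPM + 1) was used in the same way among 15599 genes. Ccl2 was most like Clec10a, a lectin of macrophages and dendritic cells (0.84), Plau, a plasminogen activator (0.79), and Ccl7 (0.77). Ccl7 was most like Bmp2, a growth factor (0.96), E230020D15Rik (0.91) and Fam13a (0.90). These values rest on the Mac IV and mast cell libraries, since Ccl7 was at or near 0 in all others. Ccl12 gave 0.9995 with Ccl8 and 0.995 with Ccl24, and Ccl8 gave 0.995 with Ccl24, values that rest on the 2 Mac IV libraries, since nearly all others were at or near 0. Their other nearest genes were 4930553I21Rik and Tnfsf18 for Ccl12, 4930553I21Rik and F830016B08Rik for Ccl8, and F830016B08Rik for Ccl24.

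Ccl12 and Ccl8 are neighbours on chromosome 11 and were both read almost only in Mac IV, so the 250 bases before the start of each are shown, the only promoters of the 5 genes that were matched. They come from RefSeq on build GRCm38.p6, at chr11:82101595-82101844 for Ccl12 and chr11:82114935-82115184 for Ccl8, both on the plus strand, and capitals mark a TATA box.
Ccl12: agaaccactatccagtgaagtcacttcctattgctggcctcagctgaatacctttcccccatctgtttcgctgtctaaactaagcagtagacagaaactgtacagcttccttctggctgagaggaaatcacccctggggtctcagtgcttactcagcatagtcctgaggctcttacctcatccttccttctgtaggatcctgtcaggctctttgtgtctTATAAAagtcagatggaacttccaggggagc
Ccl8: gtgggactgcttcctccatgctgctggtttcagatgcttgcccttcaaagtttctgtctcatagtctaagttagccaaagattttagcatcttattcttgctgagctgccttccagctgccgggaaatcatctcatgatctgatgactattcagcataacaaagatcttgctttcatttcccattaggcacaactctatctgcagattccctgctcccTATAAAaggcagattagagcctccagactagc
TATAAA, searched on both strands over these bases and 50 more after the start, was found once in each, beginning 31 bases before the start of Ccl12 and 32 before that of Ccl8. Of 32851 promoters of the same length, 13.6% hold this motif. The letters of AP-1 (TGANTCA, in 7.81% of promoters), of a STAT6 type site (TTCNNNNGAA, 6.95%) and of the NF-kappaB consensus (4.51%) were not found in either window.

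The animals differed in the level of the genes within Mac IV. The male was higher by 3.36-fold for Ccl2, 3.09-fold for Ccl7 and 2.19-fold for Ccl12, and for these both CD45 plates of the male lay above both of the female. Ccl2 stood at 739 and 1601 CPM on the female plates and at 2914 and 4595 CPM on the male plates. Ccl7 stood at 534 and 560 CPM, then 1018 and 2096, and Ccl12 at 487 and 710 CPM, then 1090 and 1437. The first plate of the female came from another sequencing run than her second plate and both plates of the male. With 1 animal of each sex there is no test of the difference between the animals. The summed level of the 6 markers of interstitial-type macrophages was also higher in the male, 52719 against 38819 CPM, and its part in the difference was not tested.

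Ccl8 and Ccl24 overlapped between the animals by plate. Ccl8 stood at 11.8 and 118.1 CPM on the first and second plates of the female and at 11.3 and 140 CPM on those of the male. Its reads came from few cells, with 63.8% of them in 1 cell in the female and 38.3% in 1 cell in the male, and without the top cell of each animal its mean fell from 79.4 to 41.1 CPM. Ccl24 stood at 443 and 129.4 CPM in the female and 242.005 and 382.5 CPM in the male, and 1 cell held 52.4% of the reads of the female. The other genes were also uneven among cells. In the female, Ccl2 ran from 0 to 13611 CPM over Mac IV cells with a median of 85.2, and in the male from 0 to 20864 CPM with a median of 1481.

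**Figure D5:**
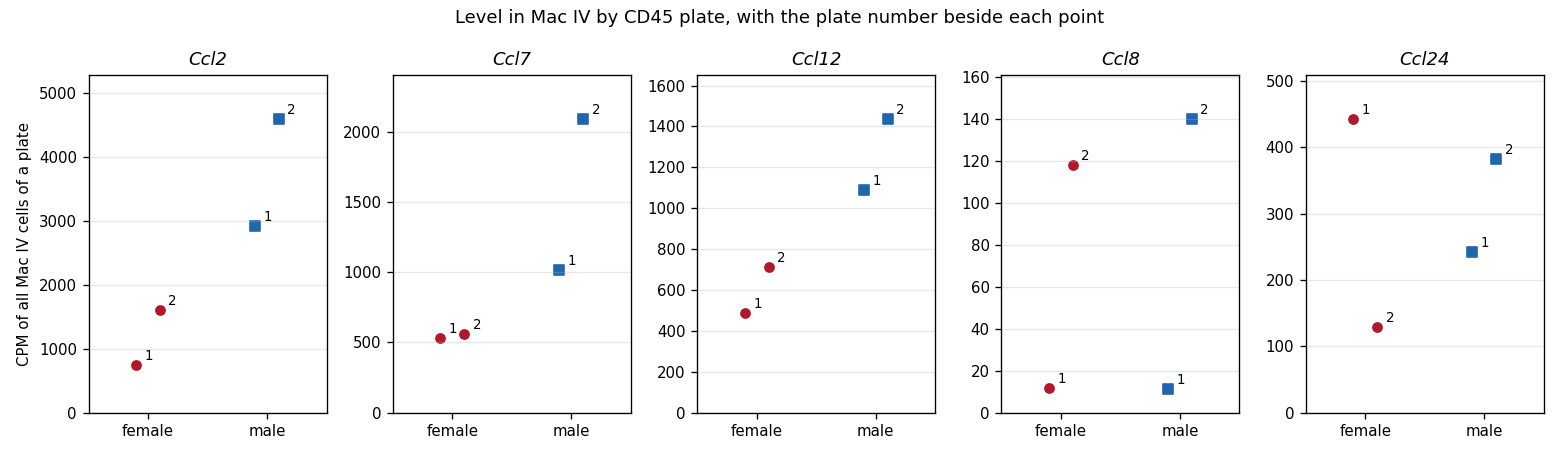
Level of each gene (CPM, linear axes from 0) in all Mac IV cells of a CD45 plate, with 2 plates for each animal and the plate number beside each point. The first plate of the female is from another sequencing run than the other plates. Both male plates are above both female plates for Ccl2, Ccl7 and Ccl12, while for Ccl8 the second plates (118.1 and 140 CPM) are far above the first (11.8 and 11.3 CPM).

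The receptors for these ligands were read mostly in other subtypes. Ccr2, the receptor for Ccl2, Ccl7 and Ccl12, was highest in basophils (1042 ± 284.8 CPM, SD, n = 2), Mac V (732 ± 227.1), DC II (646 ± 310), Mac II (515 ± 163.8) and DC I (497 ± 45.1), and these neighbours did not differ beyond their spread except that the gap from basophils to Mac V exceeded it. In Mac IV it stood at 149.3 (female) and 80.7 CPM (male). Ccr3, the receptor for Ccl24, was read in basophils at 152.96 (female) and 87.5 CPM (male), and no other subtype had a mean above 11.1 CPM. Ccr8, the receptor for mouse Ccl8, was highest in IL cells (594 ± 196.6 CPM), then NK cells (137.6 ± 21.6) and mast cells (24.2 ± 5.66). Ccr1, which binds Ccl7 among others, stood at 463 ± 230 CPM in Mac IV and 465 ± 110.6 CPM in neutrophils.

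Of the 8 receptors and decoy receptors listed, 7 passed the filter on low counts. Against Mac III, 1 of the 7 was called higher in Mac IV, Ccr2 (log2 fold change 5.66 ± 0.98, edgeR adjusted p = 0.0109), and 0 were called lower. Of all genes, 0.212% were called higher there and 0.0513% lower. Against Mac II and Mac V edgeR called 0, with 2 and 3 at an unadjusted p under 0.05 and 0 and 0 called by DESeq2. Over all genes and in either direction, the share at an unadjusted edgeR p under 0.05 was 8.22% against Mac II, 7.89% against Mac III and 10.6% against Mac V, and DESeq2 called 4.51%, 3.21% and 6.14%. The median log2 fold change of the 7 was -0.47 against Mac II, 2.73 against Mac III and 2.76 against Mac V (3.33 with genes at 0 reads set at their bound and 6 genes usable), where that of all genes tested was 0.11, -0.0023 and 0.069.

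Among the 10 other CC ligands listed, 9 were in the table and 8 were tested, and edgeR called 0 in all 3 comparisons, with 3, 3 and 2 at an unadjusted p under 0.05 and 2, 2 and 1 called by DESeq2, to be read against those shares of all genes. Their median log2 fold changes were 1.49, 0.94 and 1.30 against Mac II, Mac III and Mac V, or 2.76, 0.94 and 2.25 with genes at 0 reads at their bound. Ccl3 and Ccl4, which attract several kinds of white blood cell, stood at 505 ± 256.7 and 337.8 ± 156.8 CPM in Mac IV, far under basophils (22536 ± 6630 and 16651 ± 9256). Ccl11, the eotaxin gene that lies between Ccl7 and Ccl12, had 0 reads in Mac IV of the female and 3 in that of the male, and its highest mean was 6.03 ± 8.53 CPM in DC I.

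Receptors and factors known to induce such chemokines made up a list of 15, all tested. Against Mac III, edgeR called 1 higher in Mac IV, Maf, a transcription factor of tissue macrophages (log2 fold change 9.82 ± 1.67, adjusted p = 0.00863), and 0 lower. Of all genes, it called 0.212% higher there. Against Mac II and Mac V it called 0, with 2 and 2 at an unadjusted edgeR p under 0.05, beside 8.22% and 10.6% of all genes. DESeq2 called 1 and 1, beside 4.51% and 6.14% of all genes. The median log2 fold changes of the 15 were -0.35, 0.30 and -0.70 against Mac II, Mac III and Mac V, where those of all genes were 0.11, -0.0023 and 0.069. Nfkbia, an NF-kappaB target that feeds back on the pathway, had a log2 fold change of 1.92 ± 0.65 against Mac II (edgeR adjusted p = 0.479) and 2.06 ± 0.66 against Mac III (0.340). Against Mac V it was 0.70 ± 0.63 (edgeR adjusted p = 0.851). Nfkb1 and Rela, also on the list, did not share this. Against Mac II, Mac III and Mac V, Nfkb1 was at -0.72, -0.40 and -1.04 and Rela at 0.27, 0.30 and -0.41.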

How the data were processed

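The authors deposited raw read counts per gene and cell from plate-based Tn5 libraries, per the labels' protocols. The submitters' processing notes name STAR 2.5.2b, HTSeq 0.10 and build GRCh38, a human build, with no role given; annotation, strand and filters are not given in the sources used here. Genes are therefore placed by symbol. Reads per cell ran from 16753 to 7560179 (median 1100966), and 0 pairs of cells had identical counts. No molecular identifiers are named, so intervals and limits cover counting error only, and p-values measure only the spread between 2 animals. All but 10 cells came from CD45 plates. No doublet caller was run on these plate-based libraries.

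Counts were summed by animal and subtype for 15 subtypes, those with 5 or more cells per animal (30 libraries; Mac I, with 1 cell, was left out). CPM was computed without TMM factors. Tests used edgeR 4.0.16 (quasi-likelihood, TMM, filterByExpr, 1 coefficient per subtype, R 4.3.3), with calls at an adjusted p under 0.05 and the SE taken as the log2 fold change over the root of F; they were tested on simulated data. DESeq2 1.42.0, other filters, scalings, runs, plates and left-out libraries were alternatives. Libraries of the same animal are paired through that animal: female minus male differences correlated between subtypes with r from 0.026 to 0.131 (median 0.068, 15 pairs of subtypes); the block is an alternative. Neighbouring levels were said not to differ where the gap was under the larger SD.

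The members, lists and tests were chosen with earlier results of these data known. Named genes are the 5 members, the listed receptors, ligands and inducers, and the 3 genes most like each member by each measure, with Python 3.11.15 and scipy 1.17.1. The comparisons with mast cells, and Nfkbia as an example, were chosen after values were seen. One of the motifs searched is not reported here.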

Additional observations from a re-analysis of the deposited data

Results flagged for a closer look

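Mac IV and mast cells took opposite order in the animals for the pair of genes that both express. The log2 ratio of Mac IV to mast cells for Ccl2 was -0.29 (female) and 1.16 (male), and for Ccl7 it was -0.18 (female) and 2.77 (male). The difference between the animals was not tested, since each sex has 1 animal. Within the female the order also changed by plate: Ccl2 stood at 739 CPM in Mac IV and 1913 CPM in mast cells on the first CD45 plate, and at 1601 and 1141 CPM on the second. These plates came from different sequencing runs, so plate and run cannot be told apart in the female. In the male it was 2914 and 3449 CPM on the first plate and 4595 and 642 CPM on the second, while Ccl7 was higher in Mac IV on both. Single cells weigh heavily here, with 56.4% of the Ccl2 reads of male mast cells and 56.6% of the Ccl7 reads of female mast cells in 1 cell each. With 2 animals in each group, no search for an animal far from the others was made.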

How the results depend on the processing

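EdgeR called 2 of the 5 genes in each of the 5 comparisons (Mac IV against Mac II, Mac III, Mac V and mast cells, and mast cells against mast cell II), and RLE size factors, no filter on low counts and CD45 plates alone each left 2. In that order DESeq2 called 1, 0, 0, 0 and 1, fits of the 2 subtypes alone called 5, 5, 5, 3 and 2 (with 1.05%, 6.7%, 2.31%, 3.76% and 2.2% of all genes called higher), and the replicate block called 1, 2, 2, 1 and 1. Each cell scaled to the same total left 1 call against mast cells and 2 elsewhere, and the shared sequencing run left 1 in both mast cell comparisons. Without 1 library, the calls of the main fit were never all kept in any of the 5 comparisons. A group then has 1 sample, which is assumed to vary like the others. The share of Mac IV cells with at least 2 members fell from 68.9% to 53.9% with a minimum of 20 reads, and over single animals ran from 61.9% to 75.9%; that with at least 1 member ran from 76.5% to 88.6% over 7 alternatives, within its spread in each. Of 10 pairs of members, 7 had a rho above 0 in both animals, 6 among cells with both genes, and 9 and 8 in single animals. A rho above 0 is a low bar, and the share of all gene pairs that pass it was not counted. The 7 include Ccl2 with Ccl8, at 0.06 (female) and 0.12 (male). The 6 include Ccl12 with Ccl24 and no pair with Ccl8, whose pairs rest on at most 7 cells an animal there. Of 8 levels, 4 moved beyond the spread without the top cell of each animal, as given for Ccl8 and Ccl2 in Mac V above, to 980 CPM for Ccl2 in mast cells and to 219.1 CPM for Ccl24 in Mac IV. Ccl7 in mast cells fell to 181.5 CPM there, within its spread. Over the shared run Ccl8 stood at 105.1 and Ccl24 at 229.8 CPM. The cause of these changes was not tested. The alternatives for both mast cell comparisons were chosen after seeing the data. The number of cells limits statements on rare subtypes: 0 of 5 NK cells of the female leaves an exact upper limit of 52.2%.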
